A study of Homo sapiens with 48 samples.

Results

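The tumour suppressor p53 is a transcription factor that is stabilised when DNA is damaged and then switches on genes that stop the cell cycle, repair DNA or start apoptosis. Expression of 36 genes of this programme was examined in PSN1 cells, a human pancreatic ductal adenocarcinoma (PDAC) line, before and after acquired resistance to Talazoparib. Talazoparib inhibits poly(ADP-ribose) polymerase (PARP) and traps it on DNA. The genes were chosen by symbol from a list of established p53 targets, p53 relatives and p53 inhibitors. Their measured values were not part of this rule, although earlier results of these data were known when the list was drawn up. All 36 were found among the 20241 genes of the RNAseq table, 34 under the listed symbol and 2 under an older one (TIGAR as C12orf5 and SUSD6 as KIAA0247).

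The 9 libraries form 3 groups of 3. Parental cells received no drug. TalaR-M cells are resistant cells kept in Talazoparib, labelled with 50 nM and 4 months. TalaR-DF cells derive from the resistant cells and are labelled as untreated, and the study's methods give 4 weeks of culture without the drug. The study reports that over this time PSN1 cells became nearly as sensitive to Talazoparib as parental cells. For TalaR-DF cells the word resistant therefore names their origin below, and not their response to the drug. The 9 libraries share the PSN1 background, so the resistant cells described here come from 1 line only, and the labels do not say whether the resistant cells are a clone or a population. RNA was harvested in triplicate and no source says that the replicates came from separate selections, so p-values measure the spread between these samples, which may be technical. The p53 protein and its activity were not measured in these libraries. In bulk RNA, fewer cells expressing a gene and less RNA per cell cannot be told apart.

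The 36 genes fall into 6 roles. TP63 and TP73 encode relatives of p53, while MDM2, MDM4 and PPM1D hold p53 back: MDM2 is the ubiquitin ligase that marks p53 for destruction, MDM4 is its binding partner, and PPM1D is a phosphatase that reverses damage signalling. A further 7 genes slow the cell cycle or respond to growth arrest, with CDKN1A (the cyclin-dependent kinase inhibitor p21) as the best known. The largest role is apoptosis and survival with 16 genes, among them BBC3 and BAX of the BCL2 family and the death receptors FAS and TNFRSF10B. DNA repair and nucleotide supply hold 4 genes, metabolism and redox hold 3, and GDF15 encodes a secreted stress hormone. RefSeq promoter windows, from 250 bases before a transcription start to 50 bases after it on GRCh38.p14, were available for 31 of the 36 genes. They were searched for p53 binding sites, because such a site near the start is one route by which p53 reaches these genes.

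A p53 site was taken as 2 half-sites of 10 bases each, separated by at most 13 bases. A half-site reads 3 purines, C, 2 bases that are A or T, G and 3 pyrimidines. At most 2 mismatches were allowed over both half-sites, with none at the C and the G. The pattern is its own reverse complement, so both strands were covered. Such a match lay in the windows of 6 of the 31 genes (19.35%), against 989 of the 27305 genes with a window (3.622%). A match without a mismatch lay in the window of DDB2 and in 0.03662% of all genes. A single half-site without a mismatch was present for 7 of the 31 genes (22.58%), against 8.064% of all genes. These are matches of letters and not measured binding. The 6 matches are shown 5′ to 3′ with the half-sites in capitals, because they are the stretches of these genes most like the p53 motif within the windows searched.
MDM2 (chr12:68808923-68808942, plus strand): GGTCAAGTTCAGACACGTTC
DDB2 (chr11:47214979-47214999, plus strand): GAACAAGCCCtGGGCATGTTT
AEN (chr15:88621306-88621325, plus strand): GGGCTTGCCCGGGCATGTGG
FAS (chr10:88991309-88991328, plus strand): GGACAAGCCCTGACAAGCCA
TP73 (chr1:3690596-3690615, plus strand): GGGCAAGCTGAGGCCTGCCC
FDXR (chr17:74872996-74873025, minus strand): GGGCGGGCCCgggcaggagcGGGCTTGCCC

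The FDXR match has a spacer of 10 bases, and its first half-site overlaps a GC box. The DDB2 match begins 6 bases after the start, and the others begin between 122 bases (FAS) and 31 bases (FDXR) before it. The 250 bases upstream of the start are also shown for CDKN1A, PLK2 and GDF15, as examples. Their levels did not overlap between TalaR-M and TalaR-DF cells, which held for 17 of the 33 tested members and 40.8% of all genes. Capitals mark, on either strand, the GC box (GGGCGG), the TATA box (TATAAA), the box named for its letters CCAAT, and any exact half-site.
CDKN1A (chr6:36678464-36678713, plus strand): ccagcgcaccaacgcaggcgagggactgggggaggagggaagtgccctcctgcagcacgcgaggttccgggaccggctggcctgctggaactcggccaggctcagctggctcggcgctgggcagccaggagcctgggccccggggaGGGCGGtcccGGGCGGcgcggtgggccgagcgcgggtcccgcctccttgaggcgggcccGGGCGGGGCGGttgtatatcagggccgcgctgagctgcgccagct
PLK2 (chr5:58460087-58460336, minus strand): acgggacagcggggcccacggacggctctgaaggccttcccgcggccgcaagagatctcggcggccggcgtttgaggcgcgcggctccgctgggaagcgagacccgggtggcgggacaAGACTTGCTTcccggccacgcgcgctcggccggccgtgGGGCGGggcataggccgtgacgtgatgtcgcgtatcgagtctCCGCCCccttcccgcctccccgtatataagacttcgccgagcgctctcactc
GDF15 (chr19:18385908-18386157, plus strand): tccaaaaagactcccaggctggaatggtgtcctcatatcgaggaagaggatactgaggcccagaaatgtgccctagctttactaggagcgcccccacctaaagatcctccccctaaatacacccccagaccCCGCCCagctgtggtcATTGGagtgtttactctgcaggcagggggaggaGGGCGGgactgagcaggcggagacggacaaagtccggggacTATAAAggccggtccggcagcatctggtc

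The CDKN1A stretch holds GGGCGG 4 times, the last of them overlapping, and no exact half-site. The PLK2 stretch holds 1 exact half-site, AGACTTGCTT, that begins 132 bases before the start. The GDF15 stretch holds TATAAA 29 bases before the start and ATTGG, the reverse complement of CCAAT, 103 bases before it. GGGCGG was present on either strand for 83.87% of the 31 genes against 48.3% of all genes, CCAAT for 58.06% against 39.72%, and TATAAA for 9.677% against 13.99%. By window these shares were 76.6% against 44.95%, 48.94% against 34.61% and 6.383% against 11.53%.

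The deposited values are log2 CPM, the log2 of a gene's reads per 1000000 reads of its library, in which every value under 0 was set to 0. Read numbers here and below were inferred from the steps between values, and library sums cover only genes above 1 CPM. On this basis the libraries held 8387755 to 14973847 reads, and 1 CPM stood for 6.97 to 14.54 reads. The values include a library scaling factor, so these ranges need not match. The library labelled TalaR-M replicate 2 stood apart: over 10512 genes its correlation with the other two TalaR-M libraries was 0.780 for each, while the lowest correlation between any other pair of one group was 0.993. In that library 14 of the 33 tested members lay more than 2-fold from the mean of the other TalaR-M libraries, against 4858 of the 10512 genes. Its deviation ran from -2.25 (XPC) to 1.83 (FDXR) on the log2 scale and was lower in members with longer transcripts (Pearson r = -0.599 with log length over these 33 genes of 1 library, and -0.621 over 11690 genes, where genes are not independent replicates). The main changes that involve TalaR-M cells are therefore given with and without this library. Of 8 pancreatic duct markers, 7 were above 0 in all 9 libraries and CDH1 was at 0 in all. Their summed level was 1199 to 1261 CPM in parental, 1782 to 5829 in TalaR-M and 1017 to 1153 in TalaR-DF libraries. KRT8, KRT18 and KRT19 were highest in TalaR-M replicate 2. Mean levels of SOX9 and MUC1 were lower in TalaR-M than in parental cells, and those of the keratins and EPCAM were higher. Of 6 fibroblast genes, each group had 5 above 0 but not the same ones, with COL1A2 at 0 in TalaR-M cells and DCN at 0 in the other groups. Their summed level was 1724 to 1798 CPM in parental, 1212 to 3378 in TalaR-M and 856 to 967 in TalaR-DF libraries. In TalaR-M cells the means of COL1A1, COL3A1 and DCN were higher than in parental cells, and those of COL1A2, PDGFRB and LUM were lower. The blood cell genes CD3E, LYZ and HBB were at 0 throughout, and PTPRC reached at most 1.79 log2 CPM, in TalaR-M replicate 1. The 4 endothelial genes summed to 28.8 to 30.9 CPM in parental, 5.91 to 9.06 in TalaR-M and 2.92 to 3.24 in TalaR-DF libraries, with VWF at 0. The part of these differences in the results below was not tested.

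**Figure D1:**
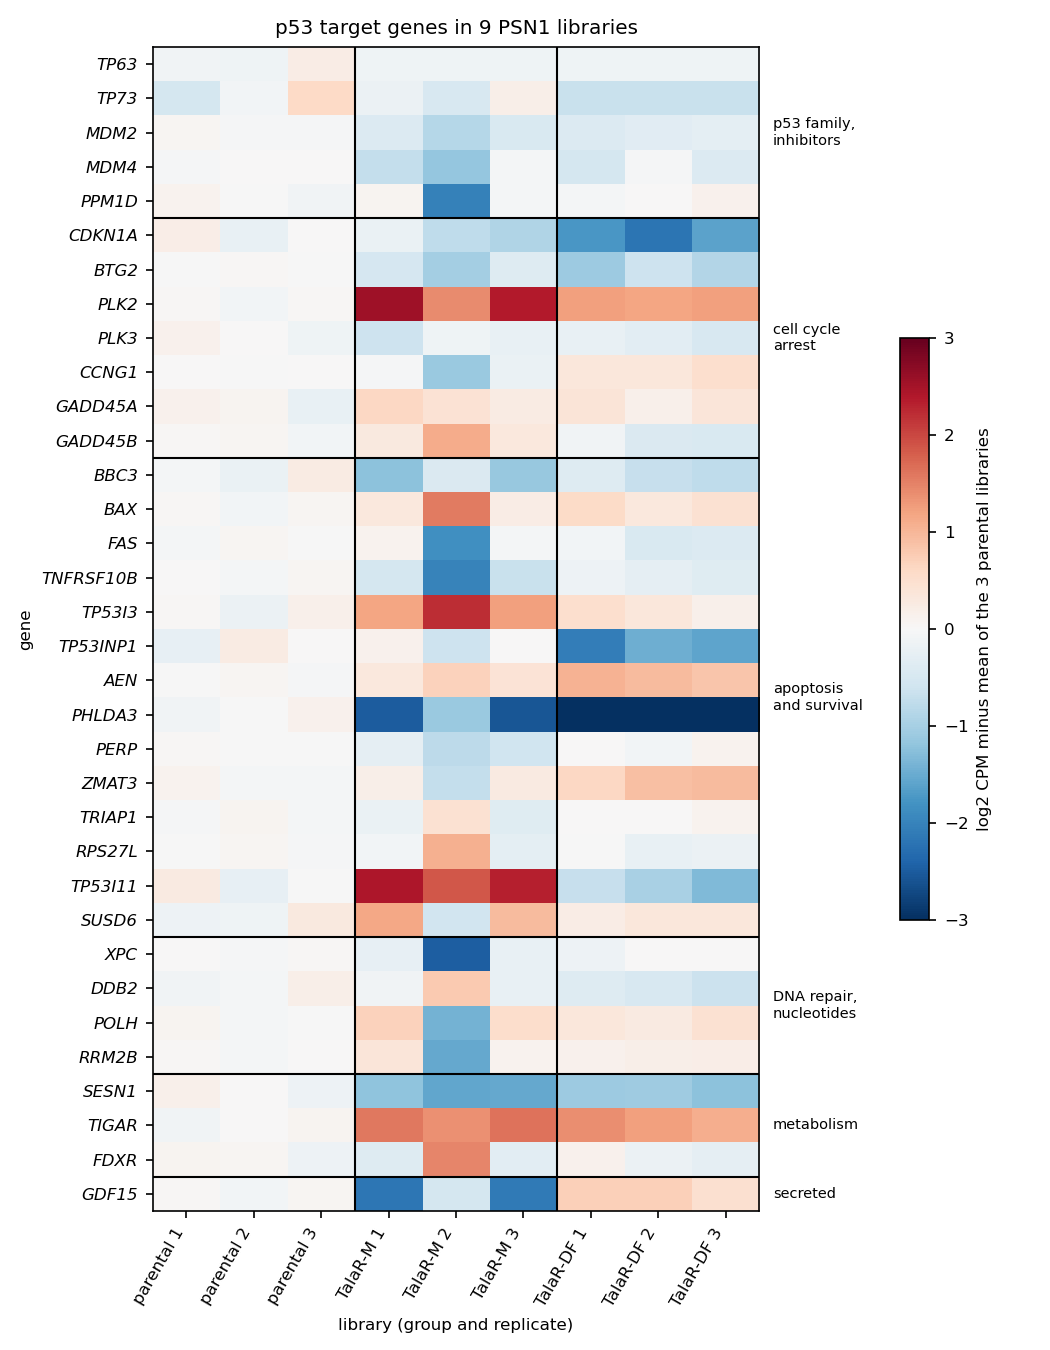
Expression of the members in the 9 libraries, as log2 CPM minus the mean of the 3 parental libraries, with genes in rows by role and libraries in columns. Colours end at -3 and 3, so PHLDA3 in TalaR-DF cells lies beyond the scale. PLK2 and TIGAR are red in every resistant library, PHLDA3 and SESN1 are blue, and TalaR-M replicate 2 differs from its group in many rows.

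The first question was how the programme differed between resistant cells under Talazoparib and parental cells. PLK2, TP53I11, TP53I3 and TIGAR rose by more than 2-fold in TalaR-M cells, and PHLDA3, GDF15 and SESN1 fell by more than 2-fold. CDKN1A and MDM2, which are among the best known p53 targets, had log2 fold changes of -0.62 and -0.58, of which that of MDM2 passed the adjusted p. The 7 genes make up 21.2% of the 33 tested members, against 13.3% of all 12471 genes tested. Higher calls were 4 (5.53% of all genes) and lower calls 3 (7.72%). At any fold, 11 members passed an adjusted p of 0.05 in limma, 5 higher and 6 lower, against 23.6% of all genes. The median log2 fold change was -0.16 over members and -0.09 over all genes tested, and -0.12 and 0.01 without TalaR-M replicate 2. The TalaR-M and parental values did not overlap for 20 members, 8 higher and 12 lower, against 49.8% of all genes. Without TalaR-M replicate 2 there were 9 calls (13.9% of all genes), with SUSD6 and BBC3 added, and 23 members passed at any fold, 11 higher and 12 lower (69.7% of members, against 60.2% of all genes). The 4 members that passed short of 2-fold with 9 libraries (MDM2, BBC3, AEN and PERP) were each lost on leaving out any parental library or TalaR-DF replicate 2, with an adjusted p of up to 0.137 over their alternatives.

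PLK2 encodes a polo-like kinase that is induced by damage and checks centriole duplication (chromosome 5 from 58453982 to 58460139, minus strand). It measured 5.37, 5.26 and 5.37 log2 CPM in parental libraries, 7.87, 6.75 and 7.72 in TalaR-M libraries and 6.57, 6.52 and 6.56 in TalaR-DF libraries. Every TalaR-M library was above every TalaR-DF library, and these were above all parental ones. Against parental cells, PLK2 was 4.32-fold higher under the drug (log2 fold change 2.11, standard error 0.27, limma adjusted p = 0.000764). The change was 2.46 without TalaR-M replicate 2, the lowest of its group.

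The other six genes of cell cycle and growth arrest were not called in TalaR-M cells. CDKN1A (chromosome 6 from 36676460 to 36687337, plus strand) measured 2.62, 2.18 and 2.43 log2 CPM in parental, 2.20, 1.64 and 1.51 in TalaR-M and 0.67, 0.22 and 0.79 in TalaR-DF libraries. Parental and TalaR-M values overlapped by 1 library, while TalaR-DF values lay below both. In TalaR-M cells the change was -0.62 (standard error 0.24, limma adjusted p = 0.0937), and -0.55 without replicate 2 (adjusted p = 0.056). BTG2, an antiproliferative gene, changed by -0.64 (adjusted p = 0.0557), and fell by 0.44 without replicate 2 (adjusted p = 0.024). The damage-inducible genes GADD45A and GADD45B lay above parental cells in all TalaR-M libraries, by 0.43 and 0.57 in the mean, with adjusted p = 0.0958 and 0.12 in limma. Both passed without replicate 2, with changes of 0.44 and 0.30. PLK3, a kinase related to PLK2, changed by -0.33 and cyclin G1 (CCNG1) by -0.45, neither past the threshold, and PLK3 alone passed without replicate 2, at -0.42 (adjusted p = 0.025) against -0.12 for CCNG1.

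Among the apoptosis and survival genes, TP53I11 showed the largest increase. It was found as a p53-inducible gene in the same kind of screen as TP53I3 (chromosome 11 from 44885903 to 44951306, minus strand). TP53I11 measured 2.68, 2.16 and 2.39 log2 CPM in parental, 4.83, 4.27 and 4.75 in TalaR-M and 1.72, 1.43 and 1.09 in TalaR-DF libraries. The 3 groups did not overlap, with TalaR-M the highest and TalaR-DF the lowest. The TalaR-M increase over parental cells was 4.63-fold (log2 fold change 2.21, standard error 0.24, limma adjusted p = 0.000311) and 2.39 on the log2 scale without replicate 2. Exons of TP53I11 overlap those of TSPAN18 on the opposite strand over 76 bases, and the counting is not stated to use strand.

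TP53I3 encodes a quinone oxidoreductase linked to oxidative stress (chromosome 2 from 24077433 to 24085861, minus strand). Its values were 3.55, 3.34 and 3.69 log2 CPM in parental, 4.71, 5.74 and 4.75 in TalaR-M and 4.02, 3.86 and 3.68 in TalaR-DF libraries. TalaR-M cells were above both other groups, and replicate 2 was the highest library. The increase was 1.54 on the log2 scale (standard error 0.28, limma adjusted p = 0.00531), and 1.20 without replicate 2. Its exons overlap those of FAM228B on the opposite strand over 80 bases.

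PHLDA3, a small protein that competes with AKT for membrane lipids, was the member that fell most (chromosome 1 from 201464278 to 201469237, minus strand). It measured 5.17, 5.27 and 5.40 log2 CPM in parental, 2.80, 4.18 and 2.73 in TalaR-M and 1.63, 1.68 and 1.19 in TalaR-DF libraries. The groups did not overlap, and TalaR-M replicate 2 was the closest of the resistant libraries to parental cells. Against parental cells, PHLDA3 was 4.14-fold lower under the drug (log2 fold change -2.05, standard error 0.37, limma adjusted p = 0.00513), and its log2 fold change was -2.52 without replicate 2.

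The BH3-only gene BBC3 (PUMA), a direct trigger of apoptosis, fell by less than 2-fold with 9 libraries. It measured 3.54, 3.42 and 3.86 log2 CPM in parental, 2.39, 3.19 and 2.47 in TalaR-M and 3.22, 2.92 and 2.84 in TalaR-DF libraries. All TalaR-M libraries lay below the parental ones, with replicate 2 the nearest. The change was -0.93 (standard error 0.25, limma adjusted p = 0.0288), and -1.18 without replicate 2. Its partner BAX moved the other way in values, by 0.70 (adjusted p = 0.153), and rose by 0.27 without replicate 2 (adjusted p = 0.014). BAX stood at 7.38 log2 CPM in replicate 2, against 6.14 and 6.03 in the other two TalaR-M libraries.

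Death receptor genes were not called. TNFRSF10B, the TRAIL receptor DR5, measured 7.49, 7.44 and 7.54 log2 CPM in parental and 6.96, 5.48 and 6.83 in TalaR-M libraries. The 3 TalaR-M libraries were all lower, with replicate 2 far below the rest. Its change of -1.07 had a limma adjusted p of 0.0589, and it fell by 0.60 without replicate 2. FAS changed by -0.60 (adjusted p = 0.359), and by 0.02 without replicate 2. FAS stood at 0.49 log2 CPM in that library, against 2.44 and 2.25 in the others. Exons of FAS, TNFRSF10B, MDM2, PLK3, POLH and XPC also overlap those of other annotated genes, most of them on the opposite strand, so these values carry the same uncertainty.

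Of the remaining apoptosis and survival genes, AEN and PERP passed the adjusted p short of 2-fold. AEN, a nuclease that takes part in apoptosis, rose by 0.47 (limma adjusted p = 0.0426), and by 0.36 without replicate 2. PERP, a tetraspan protein of desmosomes, fell by 0.56 (adjusted p = 0.0317), and by 0.44 without that library. SUSD6 measured 3.26, 3.28 and 3.70 log2 CPM in parental and 4.58, 2.83 and 4.37 in TalaR-M libraries, of which replicate 2 was below all parental ones, so its change of 0.51 (adjusted p = 0.384) became 1.06 without replicate 2. TP53INP1, ZMAT3, TRIAP1 and RPS27L had changes between -0.16 and 0.23, none past the threshold. Without replicate 2 they ran from -0.28 (TRIAP1, adjusted p = 0.021) to 0.22, and only TRIAP1 of the 4 passed. RPS27L is a close paralogue of RPS27, so reads could be shared between the genes.

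Values of the 4 DNA repair genes differed widely between TalaR-M replicate 2 and the other libraries of its group. XPC, which recognises bulky lesions, measured 5.01, 2.77 and 5.04 log2 CPM in TalaR-M and 5.26, 5.21 and 5.28 in parental libraries. POLH, a polymerase that copies past lesions, measured 3.89, 1.76 and 3.72 against 3.27, 3.12 and 3.17. Replicate 2 held the lowest value of both genes, and POLH was above all parental libraries in the other two. RRM2B, a ribonucleotide reductase subunit, was at 3.71 in replicate 2 and at 5.61 and 5.34 beside it, and DDB2, the partner of XPC in lesion recognition, was the reverse, at 5.46 against 4.56 and 4.45. No repair gene passed with 9 libraries, with changes from -0.98 (XPC) to 0.15 (DDB2). Without replicate 2 the change of DDB2 was -0.17 (adjusted p = 0.221), on the other side of 0. In the same fit POLH rose by 0.62 and RRM2B by 0.23 while XPC fell by 0.23, with adjusted p = 0.00079, 0.035 and 0.028 in limma.

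Metabolic members changed in opposite directions. TIGAR, a phosphatase that lowers glycolytic flux (chromosome 12 from 4307763 to 4360028, plus strand), measured 1.68, 1.79 and 1.86 log2 CPM in parental, 3.35, 3.14 and 3.42 in TalaR-M and 3.18, 3.00 and 2.86 in TalaR-DF libraries. Both resistant groups lay above the parental one and overlapped each other. The TalaR-M increase was 2.88-fold (log2 fold change 1.53, standard error 0.15, limma adjusted p = 0.000183), or 1.61 on the log2 scale without replicate 2. TIGAR shares 1362 exonic bases on the same strand with another annotated gene, ENSG00000285901, so its reads may be divided.

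SESN1 encodes sestrin 1, an inhibitor of mTORC1 signalling (chromosome 6 from 108984309 to 109094846, minus strand). It measured 3.87, 3.72 and 3.56 log2 CPM in parental, 2.52, 2.15 and 2.19 in TalaR-M and 2.63, 2.65 and 2.49 in TalaR-DF libraries. Both resistant groups lay below every parental library. In TalaR-M cells SESN1 fell 2.70-fold (log2 fold change -1.43, standard error 0.16, limma adjusted p = 0.000394), and its change was -1.36 without replicate 2. FDXR, the mitochondrial ferredoxin reductase, changed by 0.25 (adjusted p = 0.698), and fell by 0.36 without replicate 2 (adjusted p = 0.039). FDXR stood at 5.44 log2 CPM in replicate 2, against 3.57 and 3.66 beside it.

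GDF15 (chromosome 19 from 18374731 to 18389176, plus strand) measured 3.50, 3.39 and 3.54 log2 CPM in parental, 1.32, 2.96 and 1.36 in TalaR-M and 4.19, 4.18 and 3.94 in TalaR-DF libraries. The groups did not overlap, with TalaR-M the lowest and TalaR-DF the highest. In TalaR-M cells the change was -1.60 (standard error 0.40, limma adjusted p = 0.0229), and -2.14 without replicate 2. The call was lost on leaving out TalaR-M replicate 1 or 3 or any parental library, in a fit of the 2 groups alone and under median-ratio rescaling, with an adjusted p of up to 0.0836. With a pseudocount of 8 CPM added its change was -0.67, under 2-fold.

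Among the inhibitors of p53, MDM2 (chromosome 12 from 68808177 to 68845544, plus strand) measured 5.60, 5.50 and 5.49 log2 CPM in parental, 5.12, 4.67 and 5.07 in TalaR-M and 5.13, 5.18 and 5.23 in TalaR-DF libraries. Both resistant groups lay below the parental libraries. MDM2 fell by 0.58 in TalaR-M cells (limma adjusted p = 0.0261), and by 0.44 without replicate 2. MDM4 and PPM1D changed by -0.65 and -0.67 (adjusted p = 0.123 and 0.341). Without replicate 2 their changes were -0.39 and 0.01, neither past the threshold. PPM1D stood at 2.32 log2 CPM in that library, against 4.42 and 4.28.

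**Figure D2:**
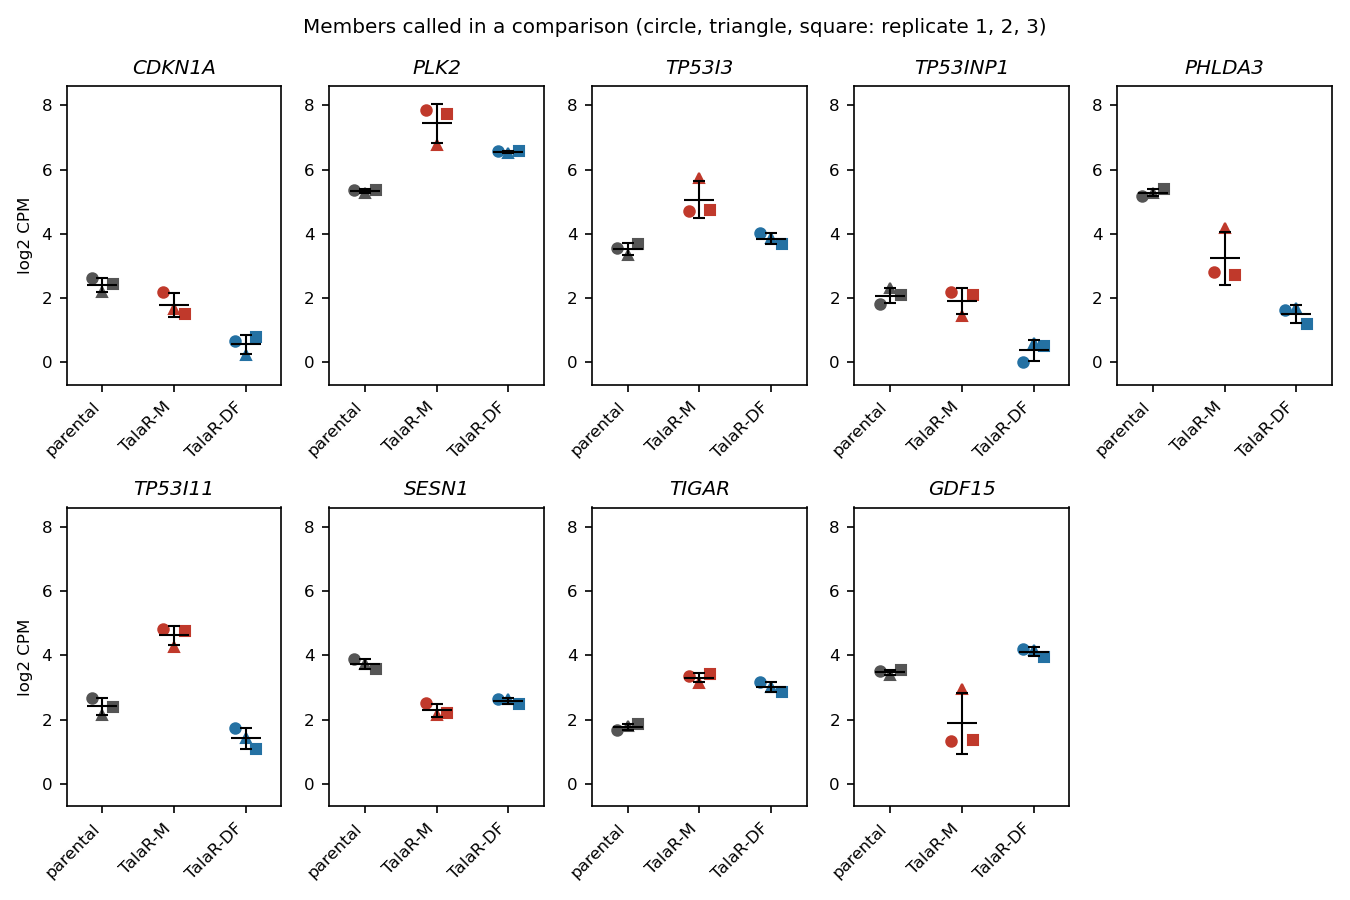
The 9 members called in at least 1 comparison, with log2 CPM on the vertical axis and the 3 groups on the horizontal axis. Points are single libraries, and the bar and whiskers are the mean and SD of 3. PLK2 and TP53I11 are highest in TalaR-M cells, PHLDA3, CDKN1A and TP53INP1 are lowest in TalaR-DF cells, and the triangle of TalaR-M replicate 2 often lies apart.

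**Figure D3:**
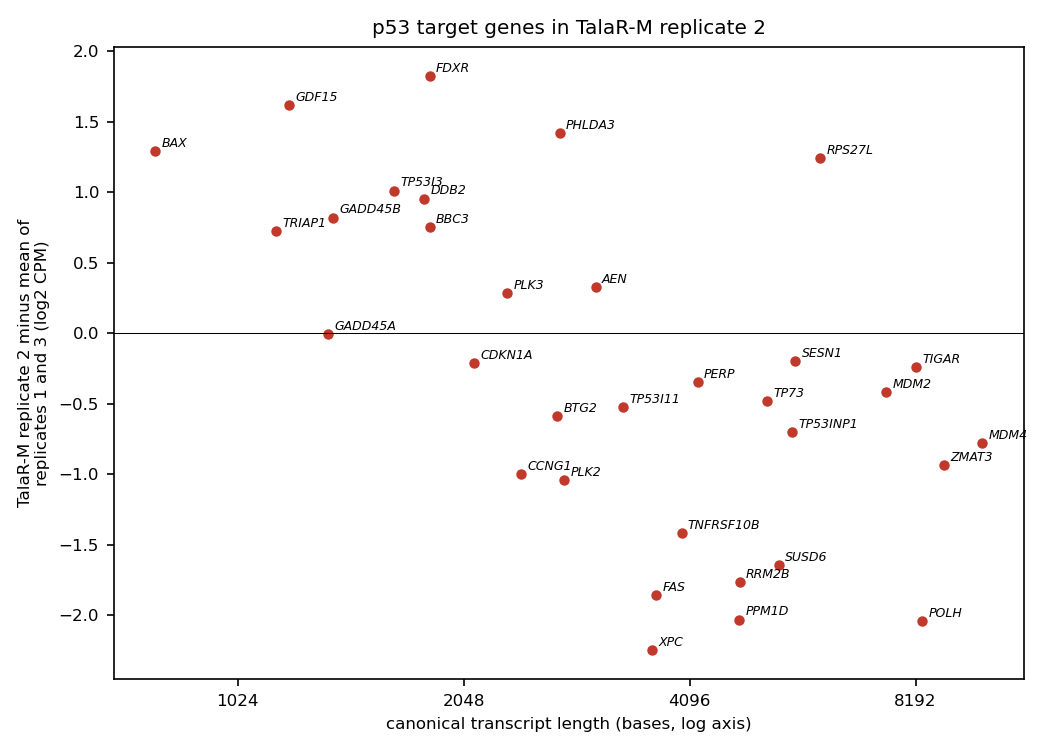
Difference of TalaR-M replicate 2 from the mean of replicates 1 and 3 (log2 CPM) for the 33 tested members, against the length of the canonical transcript on a log axis. Points run from 1.83 (FDXR) to -2.25 (XPC), with 12 above 0 and 21 below, and the members with short transcripts lie mostly above 0.

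The second question was how TalaR-DF cells differed from parental cells. PHLDA3, CDKN1A, TP53INP1 and SESN1 fell by more than 2-fold in TalaR-DF cells, and PLK2 and TIGAR rose by more than 2-fold. The 6 calls are 18.2% of the tested members, against 9.73% of all genes, with 2 higher (2.25% of all genes) and 4 lower (7.49%). At any fold, 9 members passed, 3 higher and 6 lower, against 18.6% of all genes. The median log2 fold change was -0.10 over members and 0.01 over all genes. Values of the groups did not overlap for 25 members, 10 higher and 15 lower, where 68.5% of all genes did not. This comparison holds no TalaR-M library, but its error is estimated from all 9 libraries. When TalaR-M replicate 2 was left out, the fold changes stayed as they were, the 6 calls at 2-fold compare with 11.4% of all genes, and 22 members passed at any fold (62.9% of all genes). Since these comparisons share the parental libraries, their changes are not independent of each other.

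PHLDA3 was 13.8-fold lower in TalaR-DF cells (log2 fold change -3.78, standard error 0.37, limma adjusted p = 0.00022). It rested on 28 to 44 reads per TalaR-DF library, against 529 to 557 reads in parental libraries. CDKN1A was 3.60-fold lower (log2 fold change -1.85, standard error 0.24, adjusted p = 0.000999), from 62 to 89 reads in parental to 15 to 22 in TalaR-DF libraries. Both genes were low but above 1 CPM in each TalaR-DF library.

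TP53INP1 encodes a stress protein of autophagy and apoptosis (chromosome 8 from 94925972 to 94949378, minus strand). It measured 1.83, 2.31 and 2.08 log2 CPM in parental, 2.20, 1.45 and 2.10 in TalaR-M and 0, 0.61 and 0.50 in TalaR-DF libraries. TalaR-DF cells lay below both other groups, whose values overlapped. The decrease from parental cells was 1.70 on the log2 scale as fitted, which understates the change where a library is at 0 (standard error 0.25, limma adjusted p = 0.00234). Exons of TP53INP1 and NDUFAF6 overlap on opposite strands over 225 bases.

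SESN1 and TIGAR stayed on the same side of parental cells as under the drug. SESN1 fell by 1.13 (standard error 0.16, limma adjusted p = 0.00175), and TIGAR rose by 1.24 (standard error 0.15, adjusted p = 0.000774). With a pseudocount of 8 CPM added, the TalaR-DF changes of CDKN1A, TP53INP1, SESN1 and TIGAR were -0.49, -0.45, -0.60 and 0.49, all under 2-fold. PLK2 rose by 1.22 (standard error 0.27, adjusted p = 0.0145), and this call was lost when any parental or any TalaR-DF library was left out, with an adjusted p of up to 0.0616. The SD of PLK2 was 0.06 log2 CPM in parental and 0.03 in TalaR-DF libraries (n = 3 each).

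A further 3 members passed short of 2-fold. AEN measured 4.99, 5.06 and 4.97 log2 CPM in parental, 5.32, 5.70 and 5.42 in TalaR-M and 6.05, 5.95 and 5.84 in TalaR-DF libraries, 3 levels without overlap. It rose by 0.94 in TalaR-DF cells (limma adjusted p = 0.00229). BTG2 fell by 0.86 (adjusted p = 0.0208), and TP53I11 fell by 0.99 (adjusted p = 0.0218). Both were lost on leaving out TalaR-DF replicate 3 or parental replicate 1 or 3, with an adjusted p of up to 0.0863 for BTG2 and 0.108 for TP53I11 over their alternatives.

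The other members moved less. ZMAT3, an RNA-binding zinc finger protein, stood at 4.41, 4.69 and 4.73 log2 CPM in TalaR-DF and at 3.90, 3.72 and 3.74 in parental libraries. Its change of 0.83 did not pass with 9 libraries (limma adjusted p = 0.0641) and did without TalaR-M replicate 2 (adjusted p = 3.3e-05). BBC3 changed by -0.61, GDF15 by 0.63, DDB2 by -0.50, BAX by 0.46 and CCNG1 by 0.39 in the same way: none passed with 9 libraries, and all passed without that library, with adjusted p from 0.00021 to 0.0028. MDM2 changed by -0.35 (adjusted p = 0.163), and fell by the same amount without it (adjusted p = 0.00064). POLH and TP53I3 passed only without that library too, as higher by 0.35 and 0.32. TNFRSF10B, GADD45B and PLK3 did so as lower, with changes of -0.26, -0.33 and -0.34. XPC, PPM1D, PERP, TRIAP1, FDXR and RPS27L had changes between -0.13 and 0.05.

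**Figure D4:**
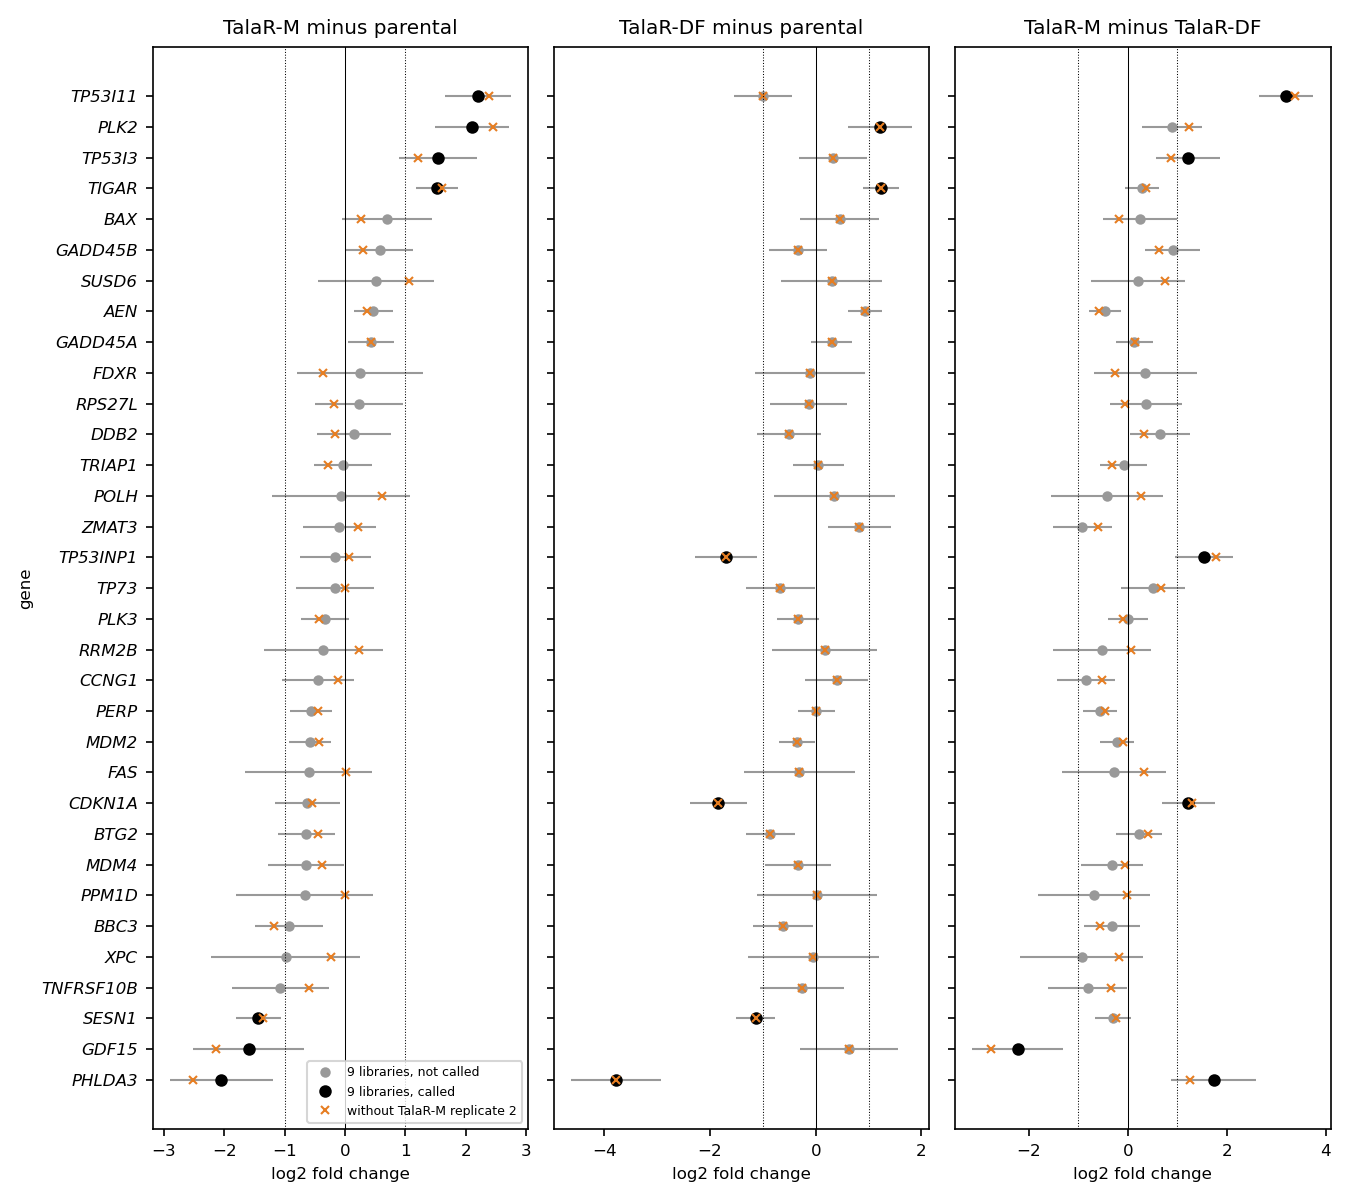
Log2 fold changes of the 33 tested members in the 3 comparisons, with genes ordered by the change between TalaR-M and parental cells. Circles are the fit of 9 libraries with its 95% confidence interval, black where called, and orange crosses are the fit without TalaR-M replicate 2. TP53I11 and PLK2 lie furthest right in the first panel, PHLDA3 furthest left in the second, and GDF15 furthest left in the third.

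The third question was how TalaR-M cells, kept in the drug, differed from TalaR-DF cells. TP53I11, PHLDA3, TP53INP1, CDKN1A and TP53I3 were higher by more than 2-fold in TalaR-M than in TalaR-DF cells, and GDF15 was lower. The 5 higher calls compare with 5.29% of all genes and the lower one with 1.64%. In all, 6 of 33 members (18.2%) were called, against 6.93% of all genes, and 8 passed at any fold, 6 higher and 2 lower (12% of all genes, 7.79% higher and 4.25% lower). The median log2 fold change was 0.01 over members and -0.09 over all genes, and -0.01 and -0.02 without TalaR-M replicate 2. The groups did not overlap for 17 members, 9 higher and 8 lower, against 40.8% of all genes. Leaving out TalaR-M replicate 2 gave 6 calls (8.36% of all genes), with PLK2 in place of TP53I3, and 19 members at any fold (48.8% of all genes).

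TP53I11 was 9.22-fold higher in TalaR-M than in TalaR-DF cells (log2 fold change 3.20, standard error 0.24, limma adjusted p = 0.000116), or 3.38 on the log2 scale without replicate 2. It was the member with the largest difference between the resistant groups, from 26 to 47 reads in TalaR-DF to 145 to 447 in TalaR-M libraries. The change in TP53INP1 was 1.54 (standard error 0.25, adjusted p = 0.0066), or 1.78 without that library. For CDKN1A the difference was 1.22 (standard error 0.24, adjusted p = 0.013), or 1.30 when replicate 2 was left out. The CDKN1A call was lost without TalaR-DF replicate 2 and in a fit of the 2 groups alone, with an adjusted p of up to 0.0618. With a pseudocount of 8 CPM added, CDKN1A and TP53INP1 differed by 0.28 and 0.40, both under 2-fold.

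For PHLDA3 the difference was 1.73 (standard error 0.37, limma adjusted p = 0.0204), or 1.26 when TalaR-M replicate 2 was left out. That call was lost when any TalaR-DF library was left out, with an adjusted p of up to 0.111 over all alternatives. With a pseudocount of 8 CPM added its difference was 0.72, under 2-fold. For TP53I3 it was 1.22 (standard error 0.28, adjusted p = 0.028), or 0.88 when replicate 2 was left out, which is under 2-fold. Its call was also lost when any TalaR-DF or any parental library was left out, with an adjusted p of up to 0.129. GDF15 was 4.68-fold lower in TalaR-M than in TalaR-DF cells (log2 fold change -2.23, standard error 0.40, adjusted p = 0.00958), and its change was -2.77 without replicate 2. In a fit of the 2 groups alone its adjusted p was 0.0793.

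GADD45B and PERP passed short of 2-fold, GADD45B higher by 0.91 (limma adjusted p = 0.0449) and PERP lower by 0.57 (adjusted p = 0.0478). Both were lost on leaving out any parental library, any TalaR-DF library or TalaR-M replicate 3, with an adjusted p of up to 0.179 and 0.174. Without TalaR-M replicate 2 their differences were 0.63 and -0.45. PLK2 was higher by 0.89 (adjusted p = 0.0673) with 9 libraries and by 1.24 (adjusted p = 5.9e-08) without replicate 2. Without that library BTG2, SUSD6 and DDB2 also passed as higher in TalaR-M cells, by 0.42, 0.76 and 0.33. ZMAT3, AEN, BBC3, CCNG1, TNFRSF10B and TRIAP1 passed as lower, with changes from -0.60 (ZMAT3) to -0.33 (TRIAP1). None of these genes passed in this comparison with 9 libraries. For SESN1 and TIGAR the differences between the resistant groups were -0.30 (95% confidence interval -0.67 to 0.07) and 0.29 (-0.06 to 0.64), neither past the threshold. Without replicate 2 TIGAR passed, at 0.37 (limma adjusted p = 0.04), and SESN1 did not. Median-ratio rescaling of the libraries moved the median change of all genes from -0.09 to 0.01 for TalaR-M against parental cells and from -0.09 to 0.03 for TalaR-M against TalaR-DF cells, and all called members kept their direction under it.

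The remaining 3 members were too low to be tested. SPATA18, a mitochondrial quality control gene, and EDA2R, a receptor of the TNF family, were at 0 in all 9 libraries, that is at or under 1 CPM. TP63 measured 0.04, 0 and 0.36 log2 CPM in parental libraries and 0 in the 6 others. A change in these genes was not detectable at this depth. TP73 was tested but stayed close to that limit, at 0.13, 0.60 and 1.28 in parental, 0.50, 0.18 and 0.83 in TalaR-M and 0 in the 3 TalaR-DF libraries, and it passed in no comparison with 9 libraries. Its change in TalaR-M against parental cells was -0.16, and less than 0.01 in size without TalaR-M replicate 2. In TalaR-DF against parental cells its change was -0.67 (limma adjusted p = 0.157), and it passed without that library (adjusted p = 0.027).

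The members with a p53 match near the start did not share a direction. AEN rose and MDM2 fell in TalaR-M cells, while DDB2, FAS, TP73 and FDXR passed in no comparison with 9 libraries. Without TalaR-M replicate 2, DDB2 and TP73 passed in TalaR-DF against parental cells, with changes of -0.50 and -0.67. In the same fit DDB2 passed between TalaR-M and TalaR-DF cells (0.33) and FDXR in TalaR-M against parental cells (-0.36), and FAS passed in none. Of the members called, PLK2 and SESN1 had an exact half-site in a window. CDKN1A, TIGAR, TP53I3, TP53I11 and GDF15 had neither in the windows searched, and PHLDA3 and TP53INP1 had no window. Sites further from the start were outside these windows.

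Other genes of the pathway were read from 3 lists written from general knowledge. Of 28 p53 regulators, all tested, 1 was called in TalaR-M cells (13.3% of all genes) and 0 in TalaR-DF cells (9.73%) against parental cells. In limma, 4 regulators passed at any fold in TalaR-DF cells (18.6% of all genes), and 23 did without TalaR-M replicate 2 (62.9%). At an unadjusted p under 0.05 the count was 6. The share of all genes at an unadjusted p was not computed, so such counts here and below have no background to compare with. The called gene was DYRK2, a kinase that phosphorylates p53, with a log2 fold change of -1.43 (limma adjusted p = 0.00489), and -1.10 without TalaR-M replicate 2. Between the resistant groups, the deubiquitinase USP7, which stabilises MDM2, was lower by 1.26 in TalaR-M cells (limma adjusted p = 0.0341), and by 0.85 without replicate 2. USP7 no longer passed on leaving out any TalaR-DF or parental library, with the replicate block or in a fit of the 2 groups, with an adjusted p of up to 0.153. PPP1R13L, an inhibitor of p53, was higher by 1.05, and by 1.03 without TalaR-M replicate 2. These were the 2 regulators called between the resistant groups (6.93% of all genes).

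A list of 55 further p53 targets, of which 49 were tested, held 15 calls in TalaR-M against parental cells (30.6%, against 13.3% of all genes), 4 higher and 11 lower. Among the largest were THBS1, a matrix protein that inhibits angiogenesis (3.74, and 4.75 without replicate 2), the growth factor PGF (-2.22) and the decoy receptor TNFRSF10D (-1.94). Without replicate 2 PGF and TNFRSF10D changed by -2.71 and -1.64. In TalaR-DF cells the list held 11 calls (22.4%, against 9.73% of all genes), 1 higher and 10 lower, led by the tetraspanin CD82 (-4.10), the protease CASP1 (-2.58), LAPTM5 (-2.53) and THBS1, which was higher (2.50, limma adjusted p = 0.0442). The THBS1 call was lost on leaving out any TalaR-DF or parental library, with the replicate block, with no filter on low values and with the added pseudocount. CD82 measured 4.80, 4.77 and 4.87 log2 CPM in parental, 3.76, 3.42 and 3.36 in TalaR-M and 0.73, 0.74 and 0.66 in TalaR-DF libraries, 3 levels without overlap. TalaR-M cells exceeded TalaR-DF cells in 5 genes of the list and fell below them in 0 at 2-fold (5.29% and 1.64% of all genes). In limma 6 were higher and 2 lower at any fold (7.79% and 4.25% of all genes). At an unadjusted p under 0.05 the counts were 11 and 7. CD82 (2.80), CASP1 (2.31), SULF2 (1.42) and ALDH4A1 (1.31) differed most, by 2.85, 2.15, 1.66 and 1.02 without replicate 2. The median change of the list was -0.40 in TalaR-M and -0.48 in TalaR-DF cells against parental cells, and 0.02 between them. Without TalaR-M replicate 2 the medians that involve TalaR-M cells were -0.26 against parental and 0.22 against TalaR-DF cells, where 34 genes lay above 0 and 15 below. The calls were then 12, 11 and 8 (13.9%, 11.4% and 8.36% of all genes).

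p53 also lowers many cell division genes indirectly, through CDKN1A and the DREAM repressor complex, and 38 such genes were tested. In TalaR-M against parental cells 13 were higher at any fold and 0 lower by adjusted p in limma (10.3% and 13.2% of all genes). Without replicate 2 these counts were 35 and 0, against 30.2% of all genes higher and 30% lower. At an unadjusted p under 0.05, 17 were higher and 0 lower with 9 libraries. At 2-fold 3 genes were called, where 13.3% of all genes were: E2F1 (1.44), BIRC5 (1.04) and AURKB (1.01). Their changes were 1.12, 0.66 and 0.64 without replicate 2. The count of calls was 6 on leaving out TalaR-M replicate 2 or 3. It was 1, E2F1, on leaving out any TalaR-DF library or parental replicate 1 or 2, with the replicate block, in a fit of the 2 groups and with the added pseudocount. In TalaR-DF cells 10 were higher and 0 lower at any fold by adjusted p in limma (6.77% and 11.8% of all genes). Without replicate 2 these counts were 34 and 0, where 32.5% of all genes were higher and 30.4% lower. At an unadjusted p under 0.05, 15 were higher and 0 lower with 9 libraries. MKI67 (1.10) and CDC25A (1.03) were called, where 9.73% of all genes were. MKI67 no longer passed on leaving out any TalaR-DF or parental library or with the replicate block, and CDC25A came under 2-fold without TalaR-DF replicate 1, under median-ratio rescaling and with the added pseudocount. The TalaR-DF and parental libraries did not overlap for 34 of the 38 genes, all higher in TalaR-DF cells, where 68.5% of all genes did not overlap and 35.3% were higher without overlap, with a median change of 0.62 against 0.01 over all genes. Between the resistant groups 0 were called (6.93% of all genes), 1 passed at any fold (12%) and 4 had an unadjusted p under 0.05 in limma. Without replicate 2, 17 passed at any fold, 10 higher and 7 lower, against 23.5% and 25.3% of all genes. CHEK1 stands in this list and among the regulators.

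**Figure D5:**
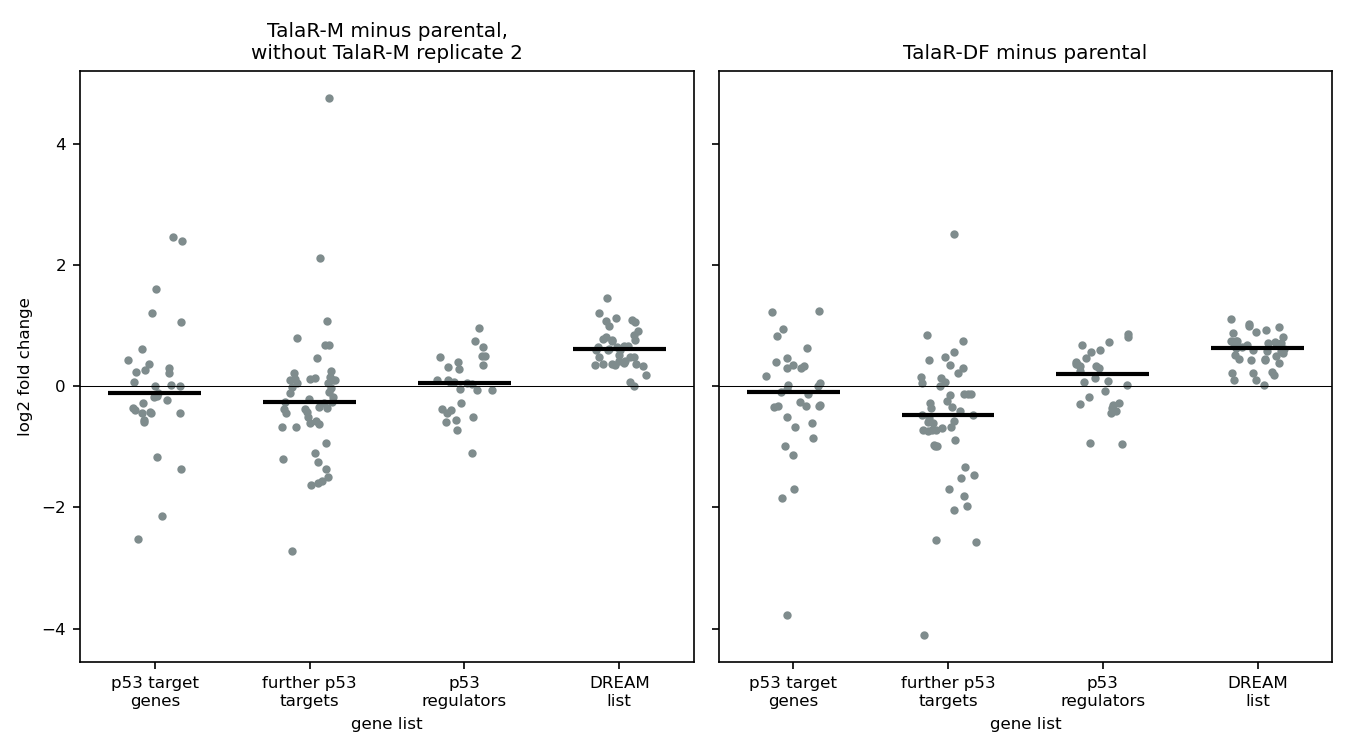
Log2 fold changes in the 33 tested p53 target genes, 49 further targets, 28 regulators and 38 genes lowered through CDKN1A and DREAM, each point a gene and each bar the median of its list. Both panels are from the fit without TalaR-M replicate 2, and the DREAM list lies almost entirely above 0 while the target lists spread on both sides.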

How the data were processed

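RNAseq libraries of PSN1 cells were compared between 3 groups of 3: parental, TalaR-M and TalaR-DF. Poly(A) RNA was made into stranded libraries and sequenced as paired reads. The authors deposited log2 CPM values for 20241 genes, with a prior count and a library scaling factor included and with negative values replaced by 0. The unit was inferred from the steps between values, which match whole reads. The submitters' processing notes name the genome build hg38, and the aligner, counter and annotation are not given in the sources used here. Gene positions, transcript lengths and exon overlaps came from GENCODE on GRCh38, and promoter sequences from RefSeq on GRCh38.p14.

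Genes above 1 CPM in at least 3 libraries (12471 genes, 33 of the 36 members) were fitted in R 4.3.3 by limma 3.58.1. The model held the 9 libraries, with a mean-variance trend and no covariates. A gene was called at a Benjamini-Hochberg adjusted p under 0.05 over all genes tested and a change of at least 2-fold. A value at 0 means at most 1 CPM, so a fold change that involves one is understated. A count test was not run, because reads at or under 1 CPM cannot be recovered, and the precision of low genes is limited by the 6.97 to 14.54 reads per CPM. The test was checked on simulated data, in which no library deviated from its group as TalaR-M replicate 2 did. The members were chosen by symbol, and they and the lists were chosen with earlier results of these data known. Every member is named, but changes that passed neither with 9 libraries nor without TalaR-M replicate 2 are not all given. Of the other lists, the 4 genes with the largest change among those called without overlap of the groups are named for each comparison, except that some genes are not reported here. TNFRSF10B, a member, was left out of the further targets. The alternatives were an added pseudocount of 8 CPM, no filter or a minimum of 5 CPM, median-ratio rescaling, no trend, array weights, a replicate block, a fit of 2 groups, no fold threshold, and each library left out in turn with the genes tested kept. Libraries of other cell lines and short treatments were not analysed here. Python 3.11.15 and matplotlib 3.10.9 drew the figures.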

Additional observations from a re-analysis of the deposited data

How the results depend on the processing

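The members called in TalaR-M against parental cells, TalaR-DF against parental cells and TalaR-M against TalaR-DF cells numbered 7, 6 and 6. An added pseudocount of 8 CPM gave 4, 2 and 2. It took SESN1, TIGAR and GDF15 under 2-fold in the first comparison and CDKN1A, TP53INP1, SESN1 and TIGAR in the second. In the third it did so for CDKN1A, TP53INP1, PHLDA3 and TP53I3. Dropping the fold threshold gave 11 in the first comparison, and a fit of only the 2 groups gave 2 in the third. Over the 9 fits that each left out 1 library the counts ran from 6 to 9, 5 to 6 and 3 to 8, with 3 reached without TalaR-DF replicate 2. With the replicate block they were 7, 6 and 5. Deviations of same-numbered libraries from their group means correlated between -0.311 and 0.158. With 3 libraries per group and TalaR-M replicate 2 apart, these values cannot show whether the replicate numbers pair the samples. Of 64 changes past the adjusted p with 9 libraries or without TalaR-M replicate 2, 58 kept their direction under every alternative run and 14 also stayed past the threshold throughout. None of the 28 past it with 9 libraries turned.

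The direction of 6 changes turned, and the cause was not tested. For TRIAP1 in TalaR-M against parental cells (-0.04) median-ratio rescaling gave 0.0757, and leaving out a library gave -0.28 to 0.13. For POLH (-0.06) array weights gave 0.59, median-ratio rescaling 0.0468, the pseudocount 0.0447 and left-out libraries -0.45 to 0.62. For RRM2B (-0.36) array weights gave 0.19 and left-out libraries -0.72 to 0.23. For FDXR (0.25) array weights gave -0.33 and left-out libraries -0.36 to 0.58. Between TalaR-M and TalaR-DF cells, TRIAP1 (-0.09) was at 0.0681 under median-ratio rescaling and -0.33 to 0.0790 over left-out libraries, and SUSD6 (0.21) was at -0.12 to 0.76 over them. Depth limits CDKN1A, PHLDA3 and TP53INP1 in TalaR-DF cells, each with 44 reads or fewer per library.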
